A study of Mus musculus with 8 samples.

Results

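The adrenergic and cAMP signalling genes measured in mouse blood are 9 genes of the pathway that relays catecholamine signals into leukocytes, namely Gnas, Arrb1, Arrb2, Rgs1, Rgs2, Pde4a, Pde4b, Pde4d and Crem. They were taken from the count table by gene symbol, and all 9 of the 9 were found among its 21878 symbols. RNA came from the peripheral blood of female wild-type (WT) C57BL/6 mice of 6 to 8 weeks, with 4 samples in each of 2 groups. The stress group was held for 6 hours in a ventilated tube, and the control group consisted of littermates that stayed in their cage for that time. Neither group had food or water in those hours, so the labelled difference between the groups was restraint. Each sample was a mixture of all blood cells, in which fewer cells of a type and less RNA per cell cannot be told apart.

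Adrenaline and noradrenaline are released during stress and bind adrenergic receptors, of which the beta type couples to cAMP. The receptor activates the stimulatory G protein encoded by Gnas, adenylyl cyclase then makes cAMP, and cAMP activates protein kinase A, which phosphorylates CREB-family factors such as those encoded by Crem. The signal is limited at the receptor and at cAMP. Arrestins (Arrb1, Arrb2) uncouple the receptor, and the PDE4 phosphodiesterases (Pde4a, Pde4b, Pde4d) degrade cAMP. RGS proteins (Rgs1, Rgs2) speed the shut-off of G proteins, for Rgs2 mainly Gq rather than the stimulatory G protein.

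Compared with the control group, 4 of the 9 genes were higher in the stress group, namely Rgs2, Gnas, Arrb1 and Arrb2. The 3 phosphodiesterase genes, Crem and Rgs1 did not pass the test. A gene was called at an adjusted p below 0.05 in edgeR's quasi-likelihood test, run on 11718 genes that reached 10 counts in 4 or more samples, and all 9 genes did. Among all genes tested, 10.4% were called higher and 3.69% lower by this rule. The median log2 fold change (stress over control) was 0.28 over the 9 genes and -0.02 over all genes tested. At the stricter thresholds of the study, which ask for a log2 fold change beyond 1 in size at an adjusted p under 0.01, 0 of the 9 genes were called with edgeR, DESeq2 or limma-voom, against 1.69% of all genes called higher and 0.0171% called lower. At an unadjusted p under 0.05, edgeR had 4 of the 9 genes higher and 0 lower, against 18.2% and 13% of all genes tested, and 0 of those 4 exceeded a log2 fold change of 1.

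Control libraries held 31471145 to 39014775 counts and stress libraries 25978683 to 29655725. Haemoglobin genes took up 51.9% to 63.8% of these counts in the control group against 61.2% to 75.5% in the stress group, and stress replicate 3 stood apart with 6352711 counts outside haemoglobin, against 8779053 to 11007593 in the other stress samples. Levels are given as CPM, counts-per-million of a library size scaled by TMM, a method which takes the bulk of genes as unchanged. With no scaling beyond total counts, the median log2 change over the tested genes was -0.82 and the calls over all genes went from 1223 higher and 432 lower to 52 higher and 5811 lower. On that scale 0 of the 9 genes were called higher and 2, Pde4b and Rgs1, lower, against 0.444% and 49.6% of all genes tested. Changes of the 9 genes are therefore changes relative to the typical blood transcript. Relative to that median, Gnas, Arrb1, Arrb2, Rgs2, Crem, Pde4a and Pde4d lay above it on both scales and Pde4b and Rgs1 below. Rescaling multiplies all genes of a library by the same factor, so this agreement was largely fixed in advance.

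**Figure D1:**
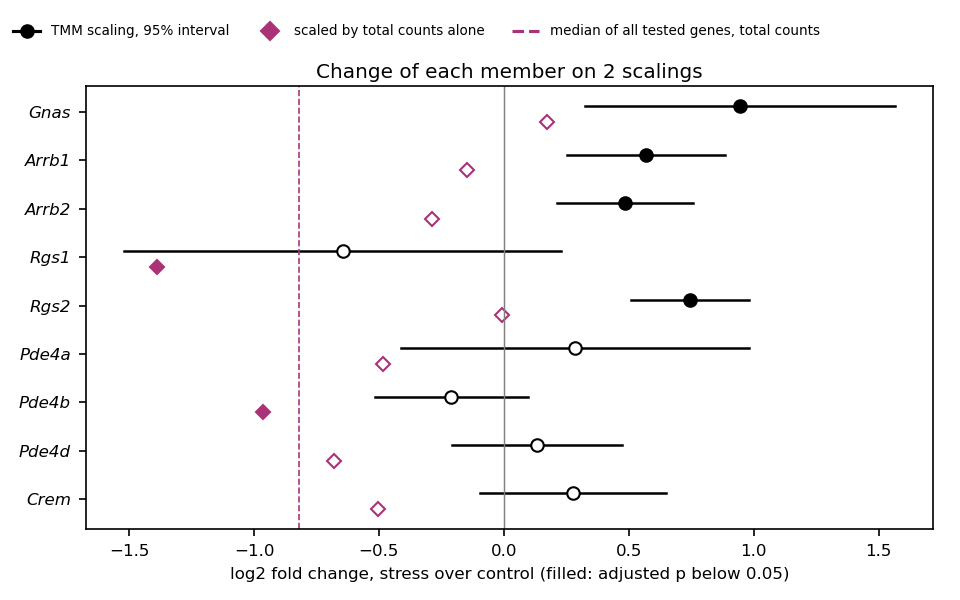
Log2 fold change of each gene (stress over control, n = 4 per group) with TMM scaling (circles, with 95% intervals) and with scaling by total counts alone (diamonds), where filled symbols mark an adjusted p below 0.05. With TMM scaling Gnas, Arrb1, Arrb2 and Rgs2 are filled and above 0, while with total counts only Pde4b and Rgs1 are filled and the dashed median of all genes lies at -0.82.

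Gnas encodes the alpha subunit of the stimulatory G protein, the relay between beta-adrenergic receptors and adenylyl cyclase, and it was the most abundant of the 9 genes. It spans 174284320 to 174346744 on the plus strand of chromosome 2 (GRCm38, GENCODE M21 annotation, as for all genes here). Its level was 1527, 1024, 805 and 1733 CPM in control replicates 1 to 4 and 2467, 2446, 3091 and 1786 CPM in stress replicates 1 to 4. The 4 stress samples were all above the 4 control samples, by a narrow margin between stress replicate 4 and control replicate 4. The control mean was 1272 ± 431 CPM and the stress mean 2447 ± 533 CPM (SD, n = 4 each), and the log2 fold change was 0.94 (standard error 0.29, 95% interval 0.32 to 1.56, edgeR's quasi-likelihood test, adjusted p = 0.0441).

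The call for Gnas was the least stable of the 4. It was lost in 6 of the 8 fits that left out a sample, namely those without control replicate 1, 2 or 3 or stress replicate 1, 2 or 3, at adjusted p-values from 0.0673 to 0.142 (edgeR). Scaled by total counts, its log2 fold change was 0.17, the only one of the 9 above 0, and the groups overlapped. Its raw counts were alike in the libraries, at 52953 to 56201 in the control group and 40725 to 55795 in the stress group, while the counts outside haemoglobin were 11409246 to 18771951 in the control group and 6352711 to 11007593 in the stress group. Counts per gene do not separate the transcripts of this imprinted locus. Of its exonic bases, 8.83% overlap the antisense gene Nespas and 13.1% overlap Gm20721 on the opposite strand, and whether strand was used in the counting is not given in the sources used here.

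**Figure D2:**
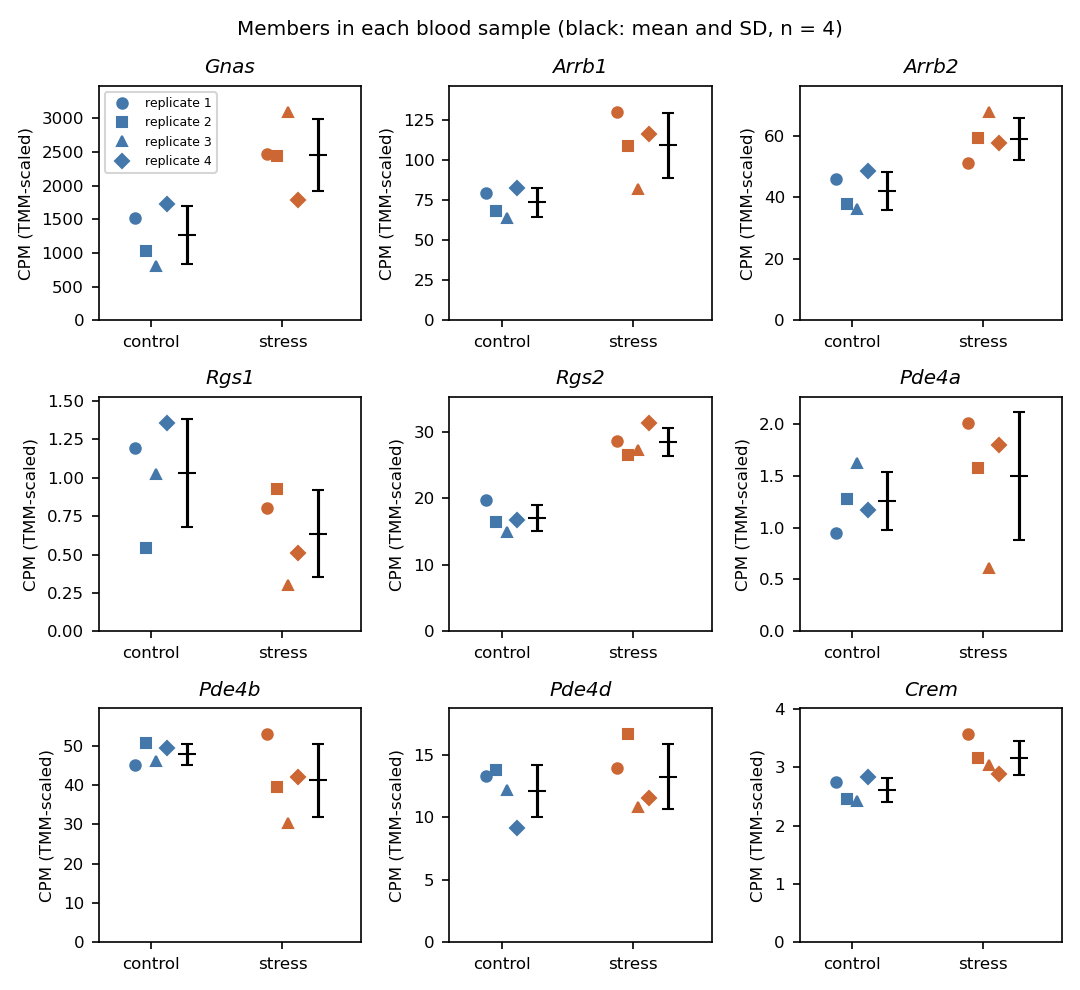
CPM after TMM scaling of each gene in each blood sample, with 4 control (blue) and 4 stress (orange) samples, the marker shape giving the replicate and the black bar the mean and SD. In Gnas, Arrb2, Rgs2 and Crem the stress samples lie wholly above the control samples, and in the other 5 genes the groups overlap.

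The beta-arrestins bind phosphorylated receptors, end their coupling to G proteins and lead them into the cell. Both were higher in the stress group. Arrb1 (chromosome 7, 99535466 to 99606771, plus strand) was measured at 79.4, 68.4, 63.7 and 82.8 CPM in control replicates 1 to 4 and at 129.8, 108.5, 81.7 and 116.2 CPM in stress replicates 1 to 4. The groups overlapped through stress replicate 3 alone, which lay just under control replicate 4. The log2 fold change was 0.57 (standard error 0.15, 95% interval 0.25 to 0.89, edgeR's quasi-likelihood test, adjusted p = 0.0226). Without stress replicate 3 it was 0.70 (edgeR, adjusted p = 0.0029), and the call was lost without control replicate 2, control replicate 3 or stress replicate 1 (edgeR, adjusted p = 0.0846, 0.0780 and 0.0529).

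Arrb2 (chromosome 11, 70432635 to 70440828, plus strand) was measured at 45.8, 37.7, 36.2 and 48.7 CPM in control replicates 1 to 4 and at 51.2, 59.4, 67.7 and 57.5 CPM in stress replicates 1 to 4. Here no stress sample reached down to the control samples. The log2 fold change was 0.49 (standard error 0.13, 95% interval 0.21 to 0.76, edgeR's quasi-likelihood test, adjusted p = 0.0229), and the call was lost without control replicate 2 or 3 (edgeR, adjusted p = 0.0933 and 0.0838). Stress replicate 3, the sample in which Arrb1 was lowest among the stress samples, was the one in which Arrb2 was highest. Scaled by total counts, the log2 fold changes were -0.15 for Arrb1 and -0.29 for Arrb2, neither called.

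Rgs2 encodes a regulator of G-protein signalling that acts mainly on Gq, and it had the smallest p of the 9 genes. It spans 143999338 to 144004161 on the minus strand of chromosome 1. Its level was 19.7, 16.5, 15.0 and 16.8 CPM in control replicates 1 to 4 and 28.6, 26.5, 27.3 and 31.3 CPM in stress replicates 1 to 4. The groups did not overlap, the stress samples being higher, and the spread within each group was small. Rgs2 rose from a mean of 17.0 ± 1.96 CPM to one of 28.4 ± 2.12 CPM (SD, n = 4 each), with a log2 fold change of 0.75 (standard error 0.11, 95% interval 0.51 to 0.98, edgeR's quasi-likelihood test, adjusted p = 0.00126). It passed in 8 of the 8 fits that left out a sample, with log2 fold changes from 0.69 to 0.82. On total counts alone its log2 fold change was -0.01 and it was not called.

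The stretch upstream of Rgs2 is shown because its promoter window was the only one of 13 member windows with more than 1 copy of TGACG, read on either strand, the short form of the cAMP response element. The full element that CREB-family factors bind is TGACGTCA. The stretch is on the minus strand of GRCm38 (RefSeq, GRCm38.p6), chr1:144004162-144004399, with the short motif in capitals on whichever strand it was found.
Rgs2 promoter: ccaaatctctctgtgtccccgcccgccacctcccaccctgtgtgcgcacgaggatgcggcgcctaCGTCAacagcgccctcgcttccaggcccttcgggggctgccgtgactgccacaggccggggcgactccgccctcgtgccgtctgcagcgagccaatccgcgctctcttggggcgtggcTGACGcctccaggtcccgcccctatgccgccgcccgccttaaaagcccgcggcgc

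The motifs begin at positions -185 and -67 from the RefSeq start of Rgs2. Of 32851 RefSeq windows of 300 bases, 20.8% hold the short motif on either strand, 5.01% hold 2 or more copies, and 1.79% hold the full element, which itself contains the short motif on each strand. Windows were matched for 5 of the 9 genes (Gnas, Pde4a, Pde4b, Pde4d and Rgs2). Of their 13 windows, 6 held the short motif and 0 the full element. The Gnas windows that start at 174327499 and 174327518 overlap and hold the same copy, so the windows are not independent. These matches describe letters and are not binding sites, and no binding was measured in these samples.

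Rgs1, an inhibitor of chemokine receptor signalling best known in lymphocytes, lies on the same strand of chromosome 1 (144242296 to 144249242) and was scarce. It had 44, 28, 71 and 43 counts in control replicates 1 to 4 and 18, 20, 4 and 16 counts in stress replicates 1 to 4. The control samples lay between 0.542 and 1.36 CPM and the stress samples between 0.304 and 0.927 CPM, so that the groups overlapped. The log2 fold change of -0.65 did not pass (standard error 0.41, 95% interval -1.52 to 0.23, edgeR's quasi-likelihood test, adjusted p = 0.300). With total counts as the scale the stress samples all lay below the control samples, and Rgs1 was called lower (log2 fold change -1.39, edgeR, adjusted p = 0.0235).

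The PDE4 enzymes hydrolyse cAMP and are the main cAMP phosphodiesterases of leukocytes. With TMM scaling 0 of the 3 genes passed the test in either direction, at an unadjusted p under 0.05 or with DESeq2 or limma-voom. Pde4b (chromosome 4, 102087543 to 102607259, plus strand) was the most abundant of the 3, at 45.0, 50.7, 46.0 and 49.4 CPM in control replicates 1 to 4 and 53.0, 39.5, 30.4 and 42.0 CPM in stress replicates 1 to 4. The stress samples were spread more widely and lay on both sides of the control samples. The log2 fold change was -0.21 (standard error 0.14, 95% interval -0.52 to 0.10, edgeR's quasi-likelihood test, adjusted p = 0.335). On total counts alone Pde4b was called lower (log2 fold change -0.96, edgeR, adjusted p = 0.0195), close to the median of -0.82.

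Pde4d (chromosome 13, 108449948 to 109953461, plus strand) lay at 13.3, 13.8, 12.2 and 9.11 CPM in control replicates 1 to 4 and at 13.9, 16.6, 10.9 and 11.6 CPM in stress replicates 1 to 4. The groups overlapped and the log2 fold change was 0.13 (95% interval -0.21 to 0.47, edgeR's quasi-likelihood test, adjusted p = 0.603). Pde4a (chromosome 9, 21165714 to 21213248, plus strand) was scarce, with 35, 66, 112 and 37 counts in control replicates 1 to 4 and 45, 34, 8 and 56 in stress replicates 1 to 4. The control samples lay between 0.951 and 1.62 CPM and the stress samples between 0.607 and 2.01 CPM, with stress replicate 3 the lowest of the 8. Its 95% interval ran from -0.41 to 0.98 around a log2 fold change of 0.28 (edgeR's quasi-likelihood test, adjusted p = 0.588), so that a change of the size seen in Rgs2 lay within it. The interval of Pde4d lay below that size.

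Crem encodes cAMP-responsive transcription factors, among them the repressor ICER that cAMP itself induces and activator forms, which counts per gene do not separate. It lies on chromosome 18 (3266048 to 3337748, minus strand), and 8.01% of its exonic bases overlap Gm6225 on the opposite strand. Crem was measured at 2.74, 2.46, 2.43 and 2.84 CPM in control replicates 1 to 4 and at 3.57, 3.15, 3.04 and 2.88 CPM in stress replicates 1 to 4. The stress samples all lay above the control samples, yet the difference did not pass (log2 fold change 0.28, standard error 0.17, 95% interval -0.10 to 0.65, edgeR's quasi-likelihood test, adjusted p = 0.298). Crem had 40 to 168 counts a sample. Including Crem, 4 of the 9 genes had stress samples wholly above the control samples and 0 wholly below, against 11.1% and 9.87% of all genes tested. By total counts these were 0 and 2 of the 9, against 0.247% and 23.5%.

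Levels between genes were compared as CPM per kilobase of annotated exon, merged over all transcripts of a gene. For Rgs1 the merged exons formed 1 block of 6947 bases that fills its whole locus. Its level per kilobase may therefore be too low, and its place in the order is uncertain. In the control group the order was Gnas at 113.7 ± 38.5, Arrb2 at 14.8 ± 2.15, Arrb1 at 6.58 ± 0.803, Rgs2 at 4.69 ± 0.541, Pde4b at 4.53 ± 0.259, Pde4d at 1.01 ± 0.174, Crem at 0.444 ± 0.0348, Pde4a at 0.164 ± 0.0364 and Rgs1 at 0.148 ± 0.0507 CPM per kilobase (SD, n = 4). The ranges of Rgs2 and Pde4b overlapped, as did those of Pde4a and Rgs1. In the stress group the order was the same, and there the ranges of Arrb1 (7.31 to 11.6 CPM per kilobase) and Rgs2 (7.30 to 8.64) overlapped, whereas Rgs2 and Pde4b (3.90 ± 0.881, SD, n = 4) no longer did. Arrb2 had fewer CPM than Arrb1 but a shorter exon length, hence its higher level per kilobase.

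Ratios of the counts of a pair of genes within a library do not depend on how libraries are scaled, and 6 such ratios were tested by a two-sided exact permutation test, in which 0.0286 is the smallest p that 4 samples against 4 allow. After Benjamini-Hochberg adjustment over the 6, 0 passed. The log2 ratio of Crem over Gnas was -8.86 ± 0.40 over control libraries and -9.56 ± 0.30 over stress libraries (SD, n = 4), without overlap (exact permutation test, p = 0.0286, adjusted 0.171). The ratio of Rgs2 over Rgs1 was 16.3, 29.9, 14.5 and 12.3 in control replicates 1 to 4 and 34.7, 27.9, 80.1 and 59.4 in stress replicates 1 to 4 (exact permutation test on log2 ratios, p = 0.0571, adjusted 0.171). It was thus higher in the stress samples apart from a crossing of control replicate 2 and stress replicate 2.

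Between the arrestins the control ratios of Arrb2 over Arrb1 were close together, at 0.577, 0.551, 0.567 and 0.588, and the stress ratios scattered, at 0.395, 0.547, 0.828 and 0.496 (exact permutation test on log2 ratios, p = 0.686, adjusted 0.823). The scatter lay on both sides of the control values. Among the phosphodiesterases the log2 ratio of Pde4b over Pde4d differed by -0.37 between the group means, Pde4b over Pde4a by -0.41 and Pde4a over Pde4d by 0.04 (exact permutation tests, p = 0.200, 0.229 and 0.943).

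**Figure D3:**
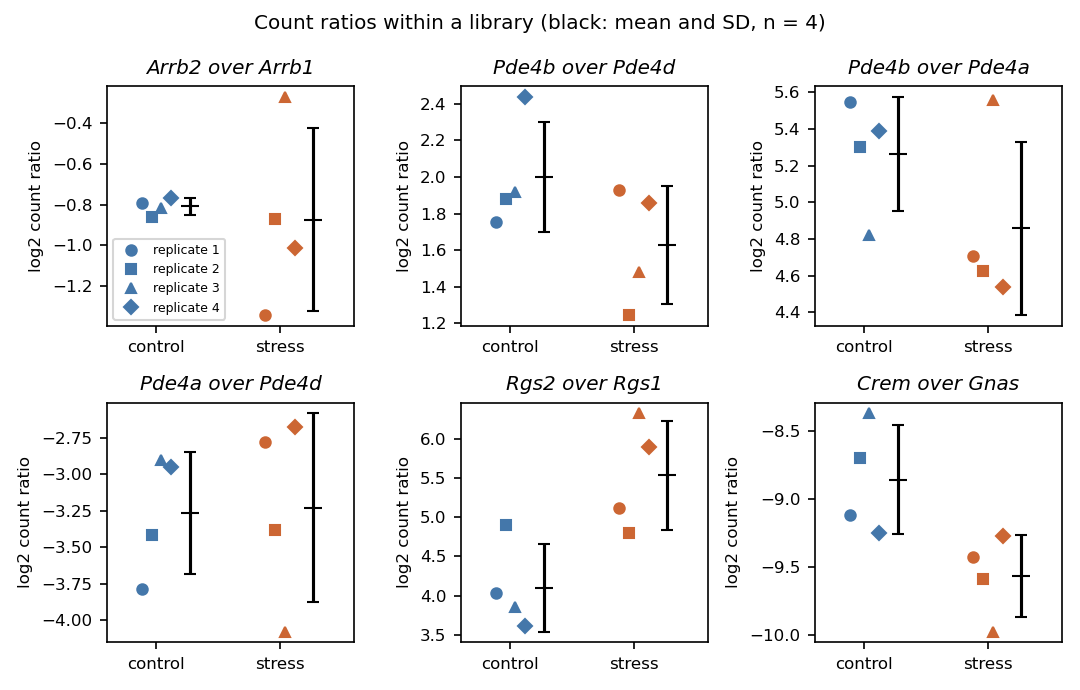
Log2 ratio of the counts of a pair of genes in each library, with 4 control (blue) and 4 stress (orange) samples and the mean and SD in black. Crem over Gnas does not overlap between the groups, and Arrb2 over Arrb1 is spread more widely in the stress samples (SD 0.45) than in the control samples (SD 0.04).

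The rest of the pathway was described from 109 further genes in 9 roles, of which 83 were tested. Of these, 17 (20.5%) were called higher and 4 (4.82%) lower, against 10.4% and 3.69% of all genes tested, and their median log2 fold change was 0.04. On total counts alone 2 of the 17, Pde7b and Thbs1, were called higher and 36 of the 83 genes lower, against 0.444% and 49.6% of all genes tested. Of the 17 called higher, 10 were also called in all 8 fits that left out a sample, and of the 4 called lower 0 were. The calls of Ptger2, Gnai2, Adcy7 and Akap11 each held in 2 of these 8 fits. Scaled by total counts, 4 of the 17 (Gnai2, Gng5, Prkaca and Junb) had log2 fold changes below 0, from -0.43 to -0.01.

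The beta-adrenergic receptor gene Adrb1 was scarce, at 0.330 ± 0.111 CPM in control and 0.265 ± 0.149 CPM in stress samples (SD, n = 4), and did not pass (edgeR's quasi-likelihood test, adjusted p = 0.757), and Adrb3 had 0 counts in all 8 libraries, where 3 counts would be 0.0433 to 0.228 CPM. Of 7 tested receptor genes 2 rose, against 10.4% of all genes tested, both for prostanoid receptors that couple to Gs. These were Ptgir (log2 fold change 0.78, edgeR, adjusted p = 0.0196) and Ptger2 (0.83, edgeR, adjusted p = 0.0490), and the groups overlapped for Ptger2. Ptger4, for another prostanoid receptor, was not called (log2 fold change 0.18, edgeR, adjusted p = 0.433). Among the kinases that phosphorylate receptors ahead of arrestin binding, 1 of 5 rose, Grk5, with 24.0 ± 6.67 CPM in control and 40.1 ± 4.92 CPM in stress samples (SD, n = 4 each, log2 fold change 0.75, edgeR, adjusted p = 0.0152).

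Beside Gnas, 5 of 15 other G protein subunit genes rose and 0 passed as lower, against 10.4% and 3.69% of all genes tested. Gng11, a gamma subunit, rose by a log2 fold change of 1.10, Gnaq, the alpha subunit that Rgs2 acts on, by 0.92 and Gnaz, an inhibitory alpha subunit, by 0.89 (edgeR's quasi-likelihood test, adjusted p = 0.00541, 0.00109 and 0.00183). Of 7 other RGS genes 2 rose, Rgs10 by 0.94 and Rgs18, a gene of platelets and their precursors, by 0.86. These 5 genes were called in 8 of the 8 fits that left out a sample, as Rgs2 was.

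Of 5 adenylyl cyclase genes, Adcy9 rose (log2 fold change 0.84) and Adcy7 fell (-0.52). While the 3 PDE4 genes did not pass, 2 of 11 other cAMP phosphodiesterase genes rose and 1 fell. Of all genes tested, 10.4% were called higher and 3.69% lower. Pde7b rose from 2.89 ± 0.484 CPM in control to 8.62 ± 2.23 CPM in stress samples (SD, n = 4 each, log2 fold change 1.59, standard error 0.20, edgeR's quasi-likelihood test, adjusted p = 8.94e-04). Pde3a, a phosphodiesterase of platelets, rose by 1.24 and Pde7a had a log2 fold change of -0.41.

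Of 15 cAMP effector genes 2 rose and 2 fell, against 10.4% and 3.69% of all genes tested. The regulatory subunit Prkar2b and the catalytic subunit Prkaca of protein kinase A rose by log2 fold changes of 1.07 and 0.37. The more abundant Prkacb, for another catalytic subunit, was not called (log2 fold change -0.25, edgeR's quasi-likelihood test, adjusted p = 0.126). Its stress samples, at a mean of 44.6 CPM, all lay below its control samples, at 53.1 CPM. The anchoring protein Akap11 and the cAMP-activated exchange factor Rapgef4 had log2 fold changes of -0.43 and -0.53. Of the 7 CREB family and coactivator genes beside Crem, 0 passed with edgeR, DESeq2 or limma-voom, and at an unadjusted p under 0.05 0 were higher and 1 lower (edgeR). Of 11 CREB target genes 2 rose, Junb by 0.72 and Thbs1, which is abundant in platelets, by 1.37.

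**Figure D4:**
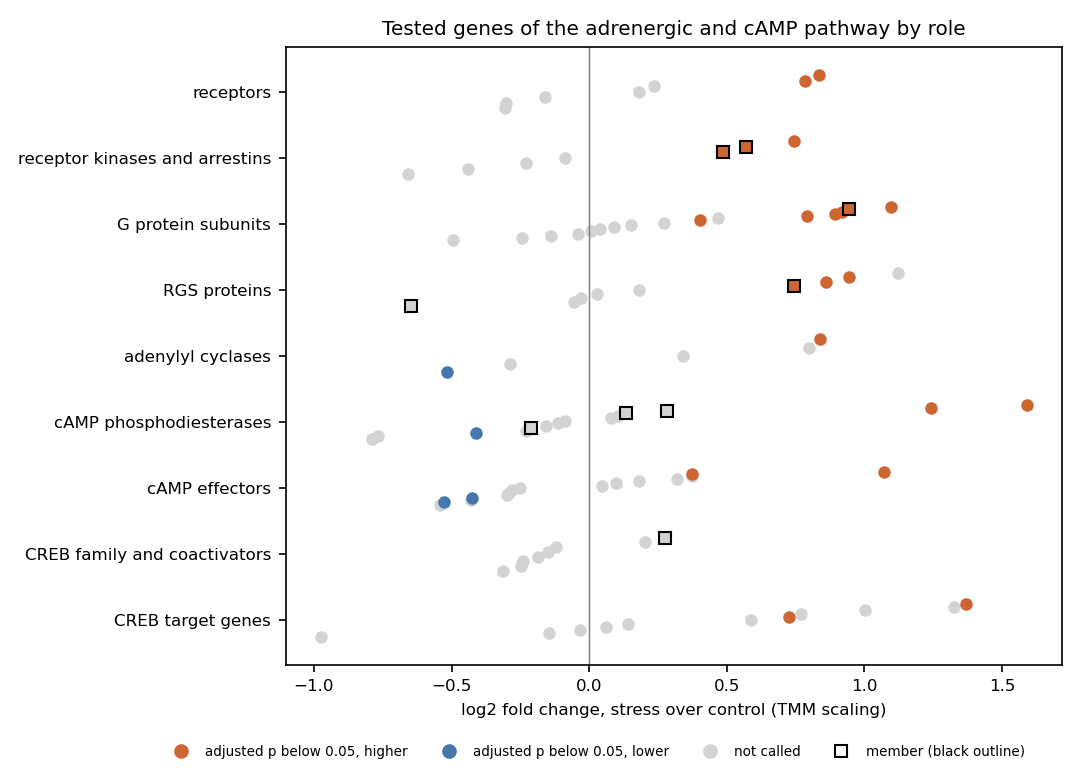
Log2 fold change (stress over control, TMM scaling) of each tested pathway gene by role, coloured where the adjusted p was below 0.05 (orange higher, blue lower), with the 9 genes as outlined squares. Calls to the right of 0 appear in every role but the CREB family, and blue points only among adenylyl cyclases, phosphodiesterases and effectors.

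Markers of blood cell types moved with the groups as well, and their part in the changes above was not tested. None of the markers listed was at 0 in all samples. Of 10 neutrophil markers 9 were called higher, with a summed level of 196.7 to 386.0 CPM in the control samples and 607.2 to 900.0 CPM in the stress samples. Of 7 classical monocyte markers 7 were called higher (306.9 to 416.1 against 674.0 to 1158 CPM), as were 7 of 7 platelet markers (1304 to 1958 against 3002 to 3599 CPM). Of 7 B cell markers 4 were called lower (834.3 to 1043 against 590.9 to 767.1 CPM). Of 7 T cell markers 0 were called (264.7 to 301.5 against 251.2 to 328.6 CPM), and of 7 NK cell markers 0 (62.0 to 103.8 against 54.4 to 124.3 CPM). Of 6 non-classical monocyte markers 2 were called lower (130.2 to 171.6 against 102.2 to 147.4 CPM), of 4 dendritic cell markers 2 were called higher, and of 2 tested eosinophil and basophil markers 1 was. Of 6 red cell markers 0 were called, at a median log2 fold change of 1.03. They summed to 274390 to 596050 CPM in control and 518820 to 1383400 CPM in stress samples. These sums are on the TMM scale, on which a library need not sum to its nominal total. Marker levels are not cell counts. By flow cytometry the study counted fewer monocytes, NK cells, B cells and T cells and more neutrophils in the blood of stressed mice.

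Each of the 4 called genes was therefore also set against these lists, as its log2 CPM less the mean log2 CPM of a list. Against neutrophil markers Rgs2 was lower in the stress group by 0.87, Arrb1 by 1.06 and Arrb2 by 1.12 on the log2 scale, with every stress sample below every control sample, and Gnas was lower by 0.63 with overlap. Against platelet markers the difference was 0.00 for Gnas, -0.23 for Rgs2 and -0.43 for Arrb1, with overlap, and -0.49 for Arrb2 without overlap. Against red cell markers Gnas differed by -0.06, Rgs2 by -0.30, Arrb1 by -0.49 and Arrb2 by -0.55, and the groups overlapped for all 4 genes. Against B cell markers the 4 genes were higher by 0.99 to 1.48, with every stress sample above every control sample. Crem, which was not called, was higher there by 0.77 without overlap, and the other genes not called overlapped. Against classical monocyte markers Gnas differed by -1.01 with overlap. Rgs2 (-1.24), Arrb1 (-1.44) and Arrb2 were lower there without overlap. Against non-classical monocyte markers the 4 genes were higher by 1.03 to 1.52 without overlap. T cell markers gave 0.47 to 0.96, with overlap for Arrb1 alone, and NK cell markers 0.65 to 1.14, with overlap except for Gnas. In the mean, the rise of the 4 genes was thus smaller than that of the neutrophil and classical monocyte lists. No test was run on these differences.

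**Figure D5:**
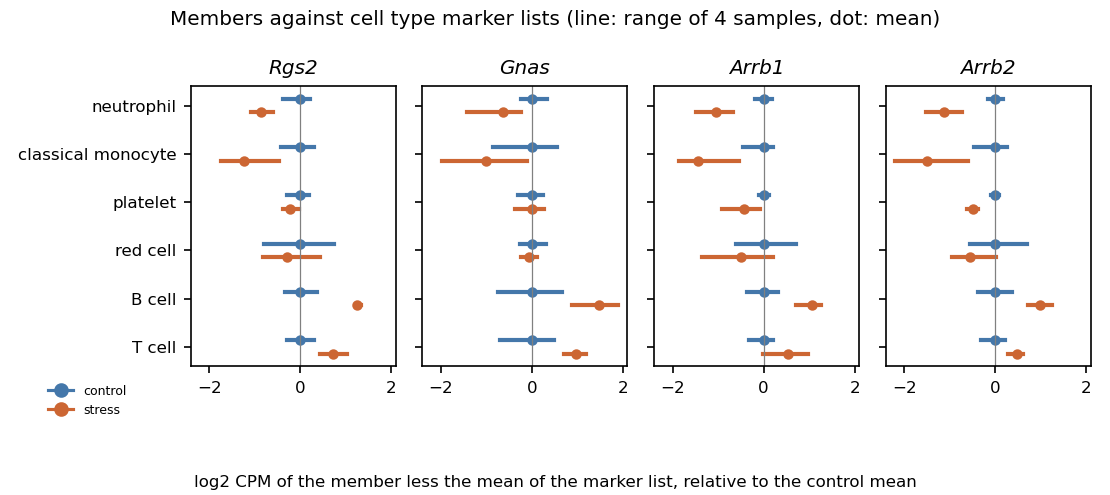
Log2 CPM of Rgs2, Gnas, Arrb1 and Arrb2 less the mean of each cell type marker list, relative to the control mean, with lines for the range of 4 samples and dots for the mean (control blue, stress orange). The stress means lie to the left against neutrophil and classical monocyte markers, where the ranges of Gnas still overlap, and to the right against B cell markers.

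Outside the pathway, the genes with the most similar levels over the 8 samples were found by the root-mean-square difference of centred log2 CPM. For Rgs2 they were Apobr (0.0798), Pgm2l1 (0.0852) and Adam15 (0.0877), against a median of 0.489 over all tested genes outside the pathway lists. Being picked as the closest, such genes lie below the median by construction. For Gnas they were Creg1 (0.0631), Mff (0.0715) and Pink1 (0.0867), for Arrb1 Asap1 (0.0539), Ptprj (0.0710) and Bend4 (0.0884), and for Arrb2 Chmp5 (0.0733), Rasgrp2 (0.0733) and Leprot (0.0745). The medians over all tested genes outside the pathway lists were 0.686 for Gnas, 0.453 for Arrb1 and 0.413 for Arrb2.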

How the data were processed

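RNA from the blood of 8 mice was sequenced by the authors (TruSeq libraries). The deposited table holds raw read counts per gene symbol without normalization. The submitters' processing notes name mm10, HISAT2 and featureCounts, and their versions, the annotation and the use of strand are not given in the sources used here. Groups came from the labels, which number the replicates only, so p-values measure the spread between these samples. The 9 genes and all lists were chosen with earlier results of these data known.

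The 11718 genes reaching 10 counts in 4 or more samples were fitted with edgeR 4.0.16 in R 4.3.3 (TMM, robust quasi-likelihood test, Benjamini-Hochberg adjustment over all genes tested). The study used DESeq2, which was run as an alternative (1.42.0), with limma-voom (limma 3.58.1), other normalizations and count filters, a replicate block and fits leaving out each sample. CPM used TMM-scaled library sizes. Count ratios had a pseudocount of 0.5. The fit was tested on simulated data.

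All 9 genes were named. In each other role, up to 3 called genes in each direction with the smallest p were named, with Adrb1 and Adrb3 whatever their values, and for each called member the 3 genes outside the pathway with the most similar levels. A further gene that the rule names is not reported here. Ptger4 and Prkacb, which the rule does not name, were added beside called genes of their kind. Grk2 and Grk3 were matched as Adrbk1 and Adrbk2. The comparison of the 9 genes with marker lists was added after seeing the data. Coordinates are from GENCODE M21 (GRCm38) and promoter windows from RefSeq (GRCm38.p6).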

Additional observations from a re-analysis of the deposited data

Results flagged for a closer look

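The count ratio of Pde4b over Pde4a was 47.1 in stress replicate 3 and 23.2 to 26.1 in the other stress samples, a sample far from the others of its group. Pde4a had 8 counts in that library. Of 30 groups looked at, 1 had such a sample, and chance alone marks about 1 in 20.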

How the results depend on the processing

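Of the 4 genes called higher, 1 passed at an adjusted p below 0.01 (edgeR), 0 on total counts alone, 2 with a replicate block and 1 to 4 when a sample was left out (1 without control replicate 2 or 3, 2 without stress replicate 1). The labels do not say whether same-numbered samples were paired. Their correlations ran from -0.15 to 0.05, which with so few samples cannot exclude a weak pairing. With the block Arrb2 (edgeR, adjusted p = 0.0555) and Gnas (0.113) were not called. On total counts alone 2 genes were called lower, and the log2 fold changes of Arrb1, Arrb2, Rgs2, Crem, Pde4a and Pde4d turned to -0.15, -0.29, -0.0057, -0.50, -0.48 and -0.68. The 17 pathway genes called higher became 2 on total counts and 10 to 18 when a sample was left out (10 without control replicate 2, 11 without control replicate 3). The 4 called lower became 36 on total counts, 2 with the block and 0 to 5 when a sample was left out (0 without control replicate 2, control replicate 3 or stress replicate 1, and 1 without control replicate 1 or stress replicate 2). Of all genes tested, 0.444% were called higher and 49.6% lower on total counts. With a sample left out, the difference in log2 ratio ran from -0.27 to 0.091 (without stress replicate 1) for Arrb2 over Arrb1 and from -0.15 to 0.32 for Pde4a over Pde4d. Past the study's thresholds 0 of the 9 genes were called under any setting run. Over all genes, the calls were 1524 higher and 619 lower with DESeq2, 920 and 240 with the block, 617 and 81 without control replicate 2, and 691 and 102 without control replicate 3. The causes were not tested. Pde4a and Rgs1 were not tested where 10 counts were required in all 8 samples.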
